A study of Mus musculus with 8 samples.

Results

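The genes described are Ano9, Basp1, Arpc5, Crebzf and Ybx1, 5 genes with very high fold enrichment of N6-methyladenosine (m6A) in control mouse embryonic stem cells. They are the first 5 by the fold of the top control peak among named genes, without Gm or Rik names, whose top control peak has a log10 FDR of at most -5 and overlaps a peak found after Setd2 knockdown. All rows carrying their identifiers were taken from both peak tables, which hold 13110 identifiers in all. This gave 9 of the 25815 control peaks and 10 of the 27612 Dox peaks. The control folds of the top peaks are therefore a description of the choice, and nothing below is tested on them.

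All cells were feeder-free embryonic stem cells that carry a doxycycline (Dox)-inducible knockdown of Setd2. They were grown as spheres in serum-free N2B27 with LIF at 1000 U/ml, the MEK inhibitor PD0325901 at 1 µM and the GSK3 inhibitor CHIR99021 at 3 µM. Control cells were not given Dox, and the treated cells had it at 1 µg/ml for 4 days. Each condition had 2 input libraries and 2 libraries pulled down with an m6A antibody (IP), 8 libraries in all. No Dox-treated cells without the knockdown construct were analysed here, so an effect of Dox itself and one of the knockdown cannot be told apart. Each deposited table was called over both replicates together. Because depth and the spread between replicates are unknown, the conditions were compared without a test. A gene without a peak in a list is one where none was called, which does not show that m6A is absent.

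m6A is placed on messenger RNA by the METTL3-METTL14 methyltransferase complex, mostly at adenosines within a GGAC-like consensus, and affects splicing, translation and decay of the RNA. It is typically dense around stop codons and in long exons. SETD2 trimethylates lysine 36 of histone H3 along transcribed genes, and METTL14 has been reported to bind that mark. The antibodies used for m6A mapping also bind m6Am, a related modification beside the RNA cap, so a peak at the very 5' end of a transcript cannot be assigned to either mark from these tables.

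The top control peaks of Basp1, Arpc5 and Ybx1 reach into the RefSeq promoter windows of these genes (250 bases before to 50 after the annotated start, GRCm38.p6, the assembly of mm10). The sequences across the 5' edge of the peak are shown because that edge is the same in both lists for these 3 genes. Capitals mark the bases inside the control peak.
Basp1 (chr15:25413715-25413744, minus strand): cggcggcagtAGCGGCAGCGGCGACGGCGG
Arpc5 (chr1:152766532-152766561, plus strand): gcggagcgggGGCTGAAGGATGGCTGCAAG
Ybx1 (chr4:119294555-119294584, minus strand): agatggacaaCGATGCGGACCAATGGGGGA
The Arpc5 peak begins at the annotated start itself, and the Basp1 peak 30 nt after it. The Ybx1 peak begins 61 nt before the RefSeq start at 119294513 and covers 111 nt of the window. Within those 111 nt the transcript strand holds 3 copies of GGAC, the core of the m6A consensus, shown here in capitals with the position of their first base relative to the RefSeq start, which counts as 0.
Ybx1 GGAC at -55 (chr4:119294557-119294576, minus strand): aacgatgcGGACcaatgggg
Ybx1 GGAC at -41 (chr4:119294543-119294562, minus strand): atgggggaGGACgagggcgg
Ybx1 GGAC at 41 (chr4:119294464-119294480, minus strand): cggagagcGGACcccag
All 3 lie inside the control peak and the Dox peak. In these 111 nt of Ybx1 GGAC was also searched in the opposite orientation (GTCC), which had 1 match. Of 32851 RefSeq promoter windows, 34.5% hold GGAC on the transcript strand in that part of the window, 33.7% hold GTCC there, and 1.22% hold GGAC at least 3 times. Both the 111 nt and the count of 3 were taken from Ybx1 itself. In all windows the first 61 of these nt lie before the annotated start, whether or not a peak covers them. The shares therefore do not measure how unusual the Ybx1 stretch is. The parts of the Basp1 and Arpc5 windows inside peaks, 20 and 50 nt long, hold no GGAC on the transcript strand, and GTCC was not searched there. A match is a description of the letters and not a mapped site.

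Each of the 5 top control peaks had an overlapping Dox peak, which the choice required, and the other peaks of these genes did not follow one direction. Of the 9 control peaks, 3 had no Dox peak with at least 1 exonic nucleotide in common on the same strand, against 19.3% of all control peaks. On the Dox side 4 of 10 had no control peak, against 29.1% of all Dox peaks. Among control peaks as well supported as the top peaks (log10 FDR -46.0 or less), 0.542% had none. The control peaks without a counterpart belonged to Basp1 (1) and Crebzf (2), and the Dox peaks without one to Arpc5 (2) and Ybx1 (2). Ano9 had a single peak in both lists. The 5 top pairs overlap by choice and are part of both counts. With so few peaks the counts are a description and do not set these genes apart from the background.

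**Figure D1:**
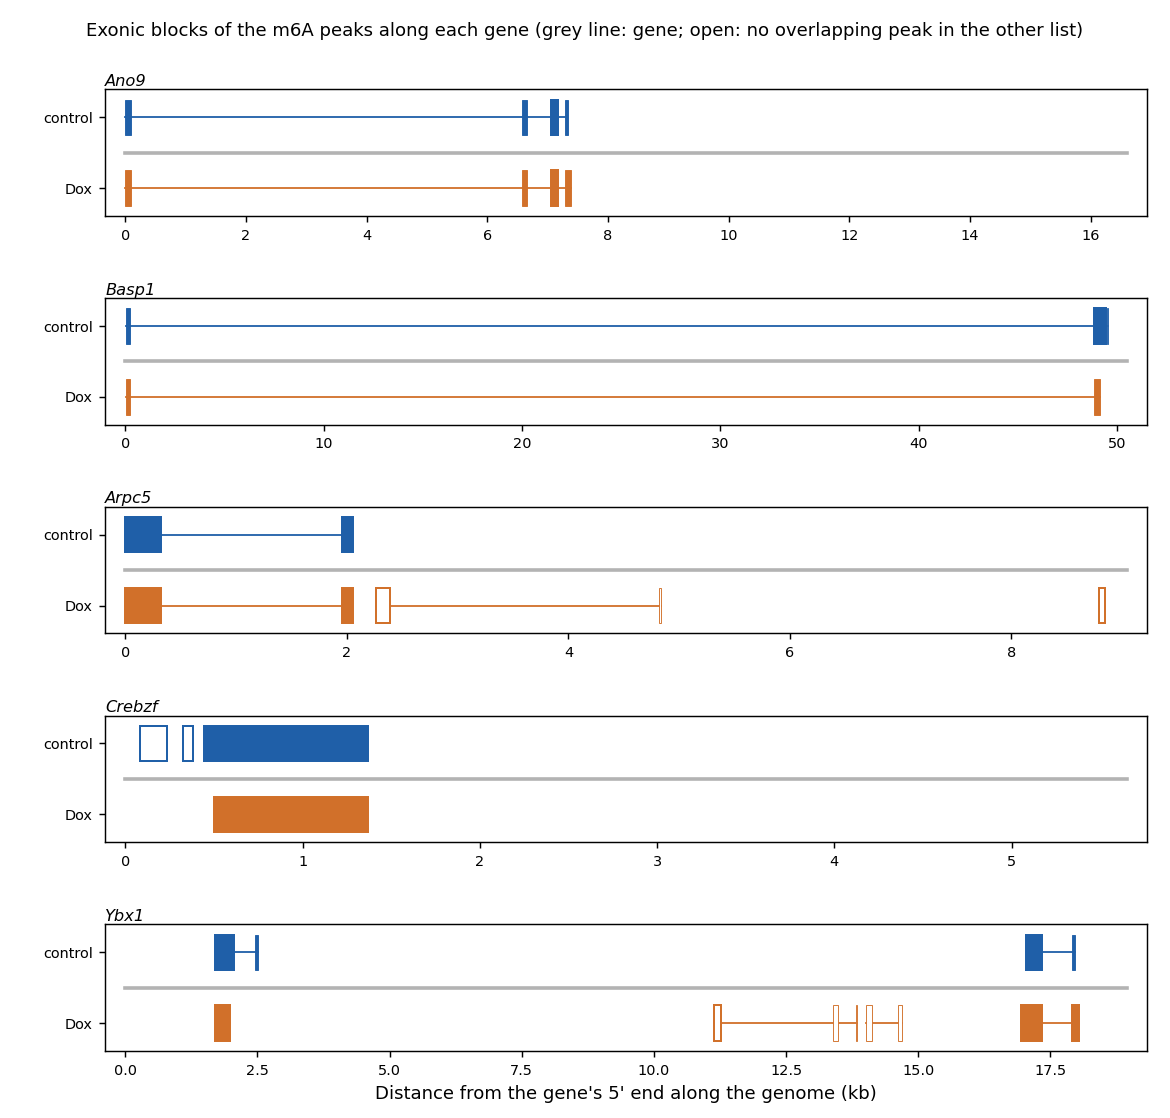
Exonic blocks of every m6A peak of the 5 genes, plotted as distance along the genome from the gene's 5' end in kb, with control peaks above and Dox peaks below the grey line that marks the gene. Thin lines join the blocks of 1 peak, and open blocks belong to peaks that overlap none in the other list. The first block of the top peak starts at the same place in both lists in 4 genes, and the open Dox blocks of Ybx1 lie between its 5' and 3' peaks. The 61-nt control peak of Basp1 merges with the block before it at this scale.

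Ano9 encodes a member of the anoctamin (TMEM16) family, which holds calcium-activated chloride channels and lipid scramblases. It lies on the minus strand of chromosome 7 from 141101212 to 141117806 (ENSMUSG00000054662.7). The fold of its control peak, 133, was the highest in that list, with a log10 FDR of -46.0. Fold is IP over input, and a lower log10 FDR (false discovery rate) means stronger support. The peak starts at the gene's 5' end and runs over 4 exonic blocks of 93, 75, 126 and 35 nt, the last of them ending 7328 nt downstream along the genome. The Dox peak had a fold of 4.23 within its own list (log10 FDR -22.0). It has the same first 3 blocks and a longer last one of 95 nt, so it covers the whole control peak and 60 nt more. By support the control peak was not extreme, since it ranked 5533 of 25815 by p.

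Basp1 encodes a myristoylated protein of growth cones and the inner plasma membrane, which also acts in the nucleus as a corepressor of WT1. It lies on the minus strand of chromosome 15 from 25363277 to 25413764 (ENSMUSG00000045763.7). The top control peak had a fold of 108, a log10 p of -340 and a log10 FDR listed as minus infinity. It consists of a 183-nt block near the 5' end and a 592-nt block that starts 48846 nt from it, across a long intron. The Dox peak over it had a fold of 10.8 (log10 FDR -43.1). The 183-nt block is the same in both lists, while the second block is 592 nt in control and 294 nt in Dox. The Dox peak therefore lies wholly within the control peak and covers 61.5% of its exonic length. A second control peak of 61 nt (25364208 to 25364268) lay just beyond and had no Dox peak. It was weak, at fold 3.23 and log10 FDR -1.96.

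Arpc5 encodes the smallest subunit of the Arp2/3 complex, which nucleates branched actin filaments. It is a plus-strand gene of chromosome 1, positions 152766542 to 152775580 (ENSMUSG00000008475.13). Its only control peak had a fold of 108 (log10 FDR -276). The Dox peak with identical bounds had one of 14.6 (log10 FDR -86.8). Both consist of a 326-nt block that opens the gene and a 94-nt block that starts 1957 nt downstream. Of all shared control peaks, 8.47% had both edges in common with their Dox peak. A further 2 peaks appeared in the Dox list only. The first spanned 152768802 to 152771381, at fold 2.53 and log10 FDR -5.26. The second, of 60 nt, ended 193 nt before the gene's 3' end, at fold 1.82 and log10 FDR -2.61. The first is in the authors' stricter list, but its log10 FDR is close to -5 and it ranked 15281 of 27612 by p. Between the stricter lists a control peak was missing for 22.3% of all Dox peaks. The second is weak, and above a log10 FDR of -5 a control peak was missing for 52.1% of all Dox peaks.

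Crebzf encodes a basic leucine zipper protein of the CREB and ATF group that binds the cofactor HCF-1. It is a plus-strand gene of chromosome 7, positions 90442734 to 90448382 (ENSMUSG00000051451.6). The top control peak was a single block of 925 nt, from 90443176 to 90444100, at fold 98.4 and log10 FDR -184. It is the longest single block among the peaks of the 5 genes. The Dox peak was a single block of 865 nt at fold 7.71 and log10 FDR -35.3. The 3' edges are the same, and the Dox peak starts 60 nt later. Towards the 5' end the control list held 2 further peaks, of 150 and 60 nt, that had no Dox peak. Their folds were high, 17.2 and 14.8, but their log10 FDRs were only -3.43 and -2.60. Of all control peaks above a log10 FDR of -5, 40.4% had no Dox peak.

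Ybx1 encodes YB-1, an abundant RNA-binding protein with a cold-shock domain that acts in translation and messenger RNA packaging. It lies on the minus strand of chromosome 4 from 119277327 to 119296265 (ENSMUSG00000028639.14). It has processed pseudogenes, so the authors' counting may have placed some of its reads elsewhere and its values are uncertain. The top control peak had a fold of 96.0 and a log10 p of -1290, which ranked 118 of 25815 by p and was the best supported of the 5 top peaks. It has a 371-nt block and a 46-nt block. The Dox peak shares the 5' edge, consists of 298 nt of the first block only, and had a fold of 11.4 and a log10 p of -497. The log10 FDR of both is listed as minus infinity.

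Ybx1 carried a second strong site near its 3' end whose folds were low in both lists. The control peak there had a fold of 2.45 and a log10 p of -570. The Dox peak had a fold of 2.61 and a log10 p of -892, ranked 64 of 27612 by p. Both have 2 blocks joined across the same exon junction. The control blocks measured 299 and 60 nt and the Dox blocks 388 and 149 nt, so the Dox peak covers the whole control peak and reaches 89 nt further at either edge. At the 5' site the Dox peak is thus the narrower one, and at the 3' site the wider one.

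Between these sites Ybx1 had 2 peaks in the Dox list only, and they were strongly supported. The first (119282429 to 119285130) has 3 blocks, a fold of 1.99 and log10 FDR -95.5. The second (119281578 to 119282250) has 2 blocks, a fold of 1.66 and log10 FDR -76.6. Among the 2667 Dox peaks at least as well supported as the weaker of these, 23 (0.862%) lacked a control peak. That cutoff was taken from the weaker Ybx1 peak itself, so both Ybx1 peaks are among the 23 by construction. By p they ranked 18 and 23 of the 8024 Dox peaks without a control peak. Of the 39 peaks at that support whose fold was under 2, as in both Ybx1 peaks, 11 (28.2%) had no control peak. The share over all Dox peaks was 29.1%. Neither is in the authors' shorter list, which holds peaks with a fold of at least 2. The level of Ybx1 RNA in the input is not given in the tables, and its part in these calls was not tested.

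**Figure D2:**
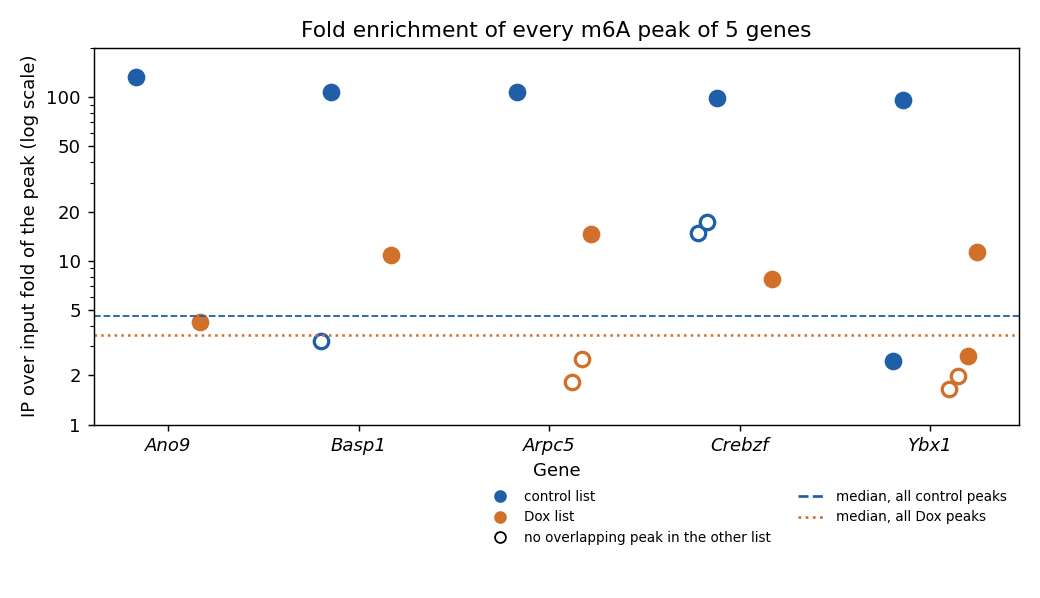
IP over input fold of each peak of the 5 genes on a log axis, with control peaks in blue and Dox peaks in orange. Open circles have no overlapping peak in the other list, and the lines mark the median fold of each whole list (4.62 in control and 3.51 in Dox). Each gene has 1 control peak at 96.0 or above, and its other peaks lie at 17.2 or below.

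Within the Dox list the same 5 sites were spread over a wide range of ranks. By fold, the Arpc5 site ranked 619 of 27612, the Ybx1 site 1362, the Basp1 site 1425, the Crebzf site 2738 and the Ano9 site 10401. By p, the Ybx1 site ranked 177, the Arpc5 site 2310, the Basp1 site 4521, the Crebzf site 5300 and the Ano9 site 7225. Ano9 was thus last of the 5 in Dox by both measures. In control it was first by fold but already last of the 5 by p. All 5 Dox folds lie above the median of the Dox list. Because the genes were picked at the top of the control list, lower values elsewhere can follow from the choice, and folds of separately called lists are not on a common scale. The values of the 5 top pairs therefore measure no loss of m6A.

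**Figure D3:**
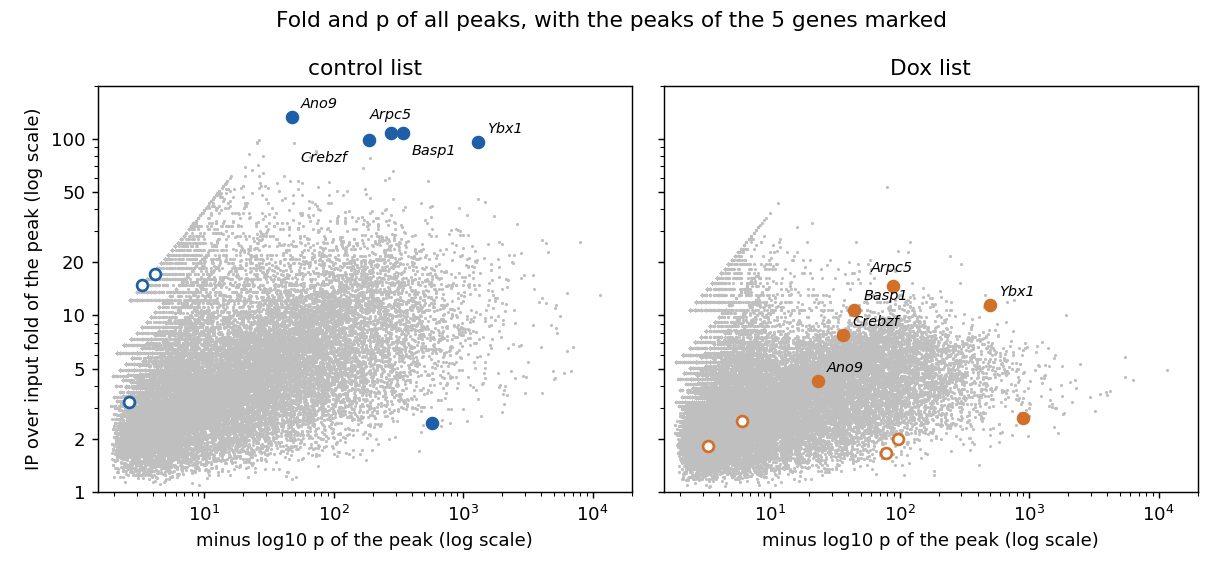
Fold against minus log10 p for all peaks of the control list (left) and the Dox list (right), both axes on log scales, with grey points for all peaks and circles for those of the 5 genes (open where no peak overlaps in the other list). The named control peaks sit along the top of the cloud at log10 p from -47.3 to -1290. The open Crebzf circles at folds of 17.2 and 14.8 lie in the striped upper left edge of weak peaks, where folds take stepwise values.

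How coarse these high folds are was examined after the values were seen. Among weak peaks (log10 FDR above -8, fold 8 to 40), 77.3% of the folds in the control list equal a whole number of steps of 1.23 after rounding, where the rounding alone spans 6.43% of a step. Steps up to 1.2305 did nearly as well. The Crebzf folds of 98.4, 17.2 and 14.8 equal 80, 14 and 12 steps. Those of 17.2 and 14.8 belong to weak peaks that were themselves among those the step was fitted to. The Ybx1 fold of 96.0 is at 78.05 steps of 1.23, which is not whole within rounding, and is whole with a larger step of that range. The folds of 133 and 108 are printed to the unit, a window of 0.813 steps, so for Ano9, Basp1 and Arpc5 the question cannot be answered. In the Dox list the step was 1.0845. The Basp1 fold of 10.8 equals 10 steps within rounding. Those of Arpc5, Ybx1, Crebzf and Ano9 lay at 13.46, 10.51, 7.11 and 3.90 steps and are not whole. Within rounding the Arpc5 and Ybx1 folds equal 13.5 and 10.5 steps. These positions describe the printed values and are no test.

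Most of the 5 top control peaks began near the gene's 5' end, a position that the choice did not use. The 5' edge lay within 500 nt of the RefSeq gene's 5' end in 4 of the 5 genes, at 0 nt in Ano9 and Arpc5, 30 nt in Basp1 and 442 nt in Crebzf. In Ybx1 it lay 1691 nt from the end of the RefSeq gene interval, but next to the start used in the promoter table. The shares that follow use the gene interval. For comparison, 32.1% of all named genes with a control peak had the 5' edge of their top peak within 500 nt. Of the 100 genes ranked highest in the same way, which include these 5, 49.0% did. The position is therefore common among high control folds and is not particular to these 5. In 4 of the 5 the peak also crosses at least 1 exon junction, as 41.2% of all control peaks do. The 5' edge was the same in control and Dox in 4 of the 5 top pairs (all but Crebzf), against 28.3% of all shared control peaks. The 3' edge was the same in 2 (Arpc5 and Crebzf), against 24.7%. The same-edge share of peaks that begin at an annotated start was not examined separately.

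Genes just outside the choice had nearly the same control folds. Ybx1 was the last inside at 96.0. Plekho1 followed at the same printed fold, placed after Ybx1 by its weaker log10 p, then Cnksr3 and P3h3 at 94.7 each, Nova2 at 84.9 and Ndfip2 at 82.4. The log10 FDRs of these 5 peaks ranged from -21.0 to -71.9. Their overlapping Dox peaks had folds of 9.22, 11.2, 8.13, 8.34 and 13.0 in the same order. The log10 FDRs of these Dox peaks were -6.22, -21.4, -5.87, -26.9 and -2.32, so the highest of these folds, that of Ndfip2, belongs to a weak peak. Among them, 2 (Cnksr3 and Ndfip2) had the 5' edge within 500 nt of the gene's 5' end.

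Relatives of the 5 genes came from lists of anoctamins, growth cone and MARCKS-type genes, Arp2/3 subunits, CREB and ATF factors and cold-shock proteins. Their top control folds were lower than those of the 5, which had been chosen for theirs. In the Dox list Actr3 (19.5) and Creb1 (18.4) stood above the highest of the 5 (Arpc5, 14.6), and no other of these relatives did. The highest fold of each list was taken separately. The control and Dox values of a relative therefore need not belong to overlapping peaks. Of 43 such genes other than the 5, 30 had a peak, 25 of them in both lists, 0 in control only and 5 in Dox only. They held 51 control peaks, 7 of them without a Dox peak, and 63 Dox peaks, 22 without a control peak. These are 13.7% and 34.9%, beside 19.3% and 29.1% of all peaks. Their median fold was 3.93 in control and 2.80 in Dox, both below the medians of all peaks, 4.62 and 3.51. The difference was not tested. The top control peak lay within 500 nt of the 5' end in 10 of the 25 with control peaks.

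**Figure D4:**
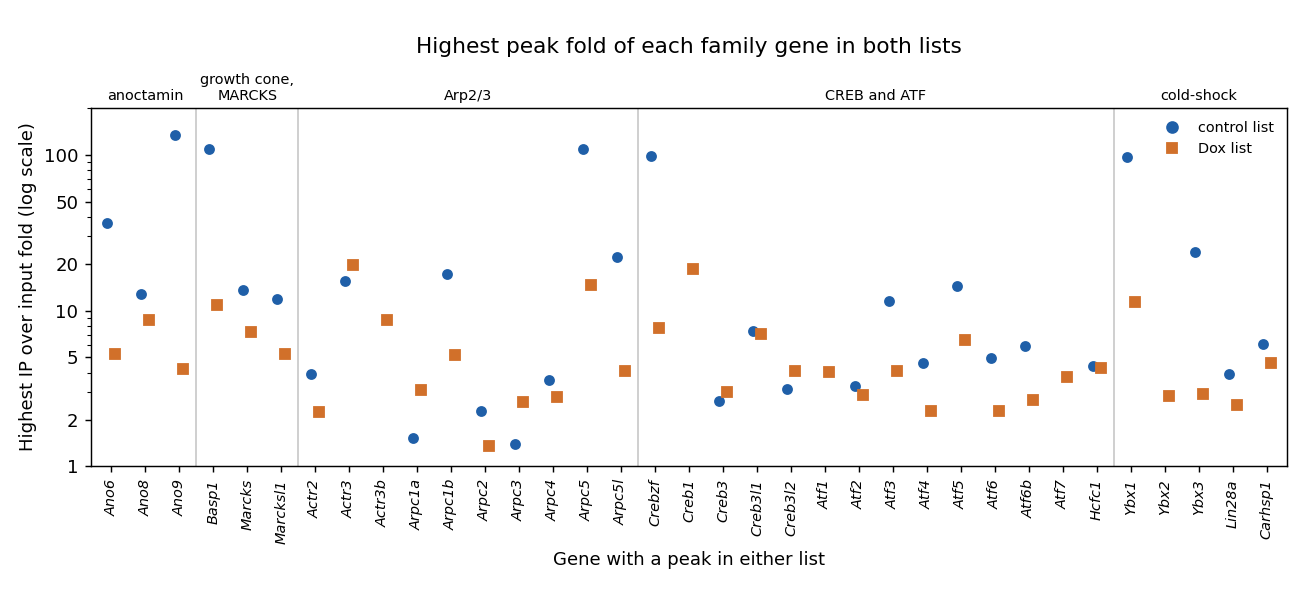
Highest IP over input fold (log axis) of each family gene with a peak, in the control list (blue circles) and the Dox list (orange squares), grouped by family. The 5 genes at 96.0 to 133 in control stand above all of their relatives, of which Ano6 at 36.3 is the highest. Genes with a square only (Actr3b, Creb1, Atf1, Atf7 and Ybx2) have peaks in the Dox list alone.

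Among anoctamins, 3 of 10 had peaks. Ano6, the phospholipid scramblase of platelets, had a top control fold of 36.3 at a peak that also starts at the gene's 5' end, and Ano8 one of 12.8. Their Dox folds were 5.26 and 8.68. Ano6 carried 3 control and 6 Dox peaks, 3 of the latter without a counterpart. Of the growth cone group, Marcks and Marcksl1, which encode actin-regulating substrates of protein kinase C, had top control folds of 13.5 and 11.9 and Dox folds of 7.23 and 5.25. Gap43 and Wt1 had no peak called.

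All 10 Arp2/3 genes had peaks, and 9 had them in both lists. Arpc5l, a close paralog of Arpc5, had a top control fold of 22.1 and a Dox fold of 4.12. Arpc1b followed with 17.2 and 5.20, and Actr3, the ARP3 subunit, with 15.4 and 19.5. The top control and Dox folds were 3.60 and 2.79 for Arpc4, 3.93 and 2.23 for Actr2 and 2.27 and 1.35 for Arpc2. Those of Arpc1a were 1.52 and 3.10 (Dox log10 FDR -3.13), and those of Arpc3 1.39 and 2.59. Arpc1a and Arpc3 each had 2 Dox peaks without a control peak, so their top Dox peak need not overlap the control one. Actr3b had 1 weak Dox peak (fold 8.68, log10 FDR -2.76). Across the complex 1 of 15 control peaks had no Dox peak and 7 of 21 Dox peaks had no control peak, with Arpc5 included (6.67% and 33.3%, beside 19.3% and 29.1% of all peaks).

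Of the 17 CREB and ATF genes and HCF, 14 had peaks, 11 in both lists and 3 in Dox only (Creb1, Atf1 and Atf7). After Crebzf the highest control folds were those of Atf5 (14.3, 89 nt from the 5' end) and Atf3 (11.5), with Dox folds of 6.44 and 4.12. Atf4, the effector of the integrated stress response, had folds of 4.58 and 2.28. Hcfc1, which encodes HCF-1, had 5 control and 6 Dox peaks with top folds of 4.38 and 4.26. Creb1 had a Dox fold of 18.4 at a log10 FDR of -4.07, so its high fold belongs to a weak peak. Of the family's 26 control peaks 5 had no Dox peak, and 10 of its 29 Dox peaks lacked a control peak. These shares, 19.2% and 34.5%, stand beside 19.3% and 29.1% of all peaks.

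Among cold-shock genes, 5 of 6 had peaks. Ybx3, a somatic paralog of Ybx1, had a top control fold of 23.8 (log10 FDR -123) at its 5' end. Its top Dox fold was 2.91 at a weak peak (log10 FDR -4.54) that need not overlap the control one. Lin28a, the let-7 regulator of stem cells, had folds of 3.89 and 2.49, and Carhsp1 of 6.06 and 4.58. Ybx2, the germ cell paralog, had 1 Dox peak with a fold of 2.82, and Lin28b had no peak called. Of the 9 control peaks of the group 2 had no Dox peak, and 5 of the 11 Dox peaks lacked a control one, 2 of these in Ybx1. The shares are 22.2% and 45.5%, beside 19.3% and 29.1% of all peaks.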

How the data were processed

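Per the labels' protocols, sonicated messenger RNA was pulled down with an m6A antibody or kept as input, and library preparation kept the strand. Reads were handled with TopHat2 2.1.1 and FastQC 0.11.5 on mm10, per the submitters' processing notes. The deposited tables are named for exomePeak. Its settings: not given in the sources used here. Per condition the authors deposited 1 table and 1 shorter list, both over all 4 libraries. The shorter list was checked to be the table's peaks whose fold is no lower than 2 and whose p is no higher than 1e-05. The deposited fold is a ratio of IP over input, the deposited column headed score is the p-value of the peak, and 2 further deposited columns hold the log10 of p and of FDR.

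Identifiers were given a symbol by location: that of the protein-coding gene in RefSeq (GRCm38.p6) with at least 50% of their peak midpoints, with strand matched where the promoter table gives it. This named 10679 of 13110 identifiers. Strand for Ano9 comes from the deposited tables. Overlaps were taken over exonic blocks with bedtools 2.31.1, and the overlap calls were tested on simulated data. Coordinates are 1-based. Named genes are the 5 members, family genes with a peak (values in the text or its plot) and the next 5 ranked genes; the members and lists were chosen with earlier results of these data known, and 1 gene of the lists is not reported here. Promoter sequences are from RefSeq (4 of the 5 genes matched). Python 3.11.15, numpy 2.4.6, pandas 2.3.3 and matplotlib 3.10.9 were used. Alternatives changed the overlap needed, the use of exonic blocks and the list filter.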

Additional observations from a re-analysis of the deposited data

How the results depend on the processing

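The numbers of unshared peaks stayed at 3 control and 4 Dox peaks when at least 50% of the shorter peak had to overlap and when whole spans replaced exonic blocks. With the authors' stricter lists, 0 of 6 control peaks and 1 of 7 Dox peaks of the 5 genes had no counterpart, beside 24.0% and 22.3% of all peaks. With both lists held to log10 FDRs no higher than -5, 0 of 6 control peaks and 3 of 9 Dox peaks had none, beside 21.0% and 22.3% of all peaks. At a fold of at least 4, the genes kept 7 control peaks, 2 of them without a Dox peak, and 5 Dox peaks, 0 without a control peak, beside 45.7% and 31.6% of all peaks. The fold filter also removes the well supported 3' peaks of Ybx1 from both lists. The choice required the top control peak of each of the 5 genes to overlap a Dox peak. These pairs pass each filter and are part of every count. The members' shares are therefore partly fixed by the choice, and no conclusion is drawn from setting them beside those of all peaks. No paired analysis was possible because each table pools both replicates, and no replicate could be left out for the same reason. Read depth is unknown, so how far it limits the calls cannot be given.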

Other observations

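The choice was also made the other way round, after the values were seen, by ranking genes on the top fold of the Dox list where that peak overlaps a control peak. The first 5 were Prkcz (Dox fold 53.1), Sowahb (43.4), Slc25a47 (38.0), Zfpm1 (35.8) and Arhgef10 (34.7). Their overlapping control peaks had folds of 12.1, 49.2, 8.08, 38.1 and 4.61 in the same order. None of these 5 genes is among the 5 described above, and the 5' edge of none of their Dox peaks lay within 500 nt of the gene's 5' end (the nearest, Sowahb, was at 510 nt). The share of all genes whose top Dox peak lies that near was not computed, so no conclusion is drawn from this count. The log10 FDRs of 4 of these Dox peaks lay between -8.06 and -10.5, and that of Prkcz was -78.1.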
